A study of Arabidopsis thaliana with 6 samples.

Results

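The 169 probe sets described here stood lower in wounded leaves than in leaves of unwounded plants, 10 min after wounding. These probe sets also stood lower in distant, unwounded leaves of wounded plants. They were chosen out of 22746 probe sets by their measured values. In a member, the mean of the local arrays lay at least 1 below that of the control arrays on the log2 scale, the mean of the systemic arrays at least 0.8 below it, and every local and systemic array lay below both control arrays. A further 6 probe sets that met these limits, those of PYK10, NAI2, AT4G29030, AT5G33370, IAA29 and ALDH7B4, were left out by name. Of the 169 members, 60 have 1 listed gene (59 genes, since AT2G30600 has 2 probe sets), 3 have several and 106 are unnamed here.

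The plants were Arabidopsis thaliana of ecotype Columbia, 5 weeks old, in soil under 10 h of light and 14 h of dark at 21 °C. In the wounded plants 3 rosette leaves were clamped with tweezers across the midvein. The 3 groups were control (leaves of unwounded plants), local (the wounded leaves) and systemic (unwounded leaves of wounded plants), with 2 arrays each, and each array carried RNA from a pool of leaves of 3 plants. Local and systemic leaves are compared with the same control arrays, so both differences share them, and p-values rest on 2 pools a group. No pool was sampled before and after wounding. A difference between control and wounded plants that is unrelated to wounding therefore cannot be told apart from an effect of wounding. Words such as fell and rose mean a difference between pools. The sample titles do not say whether a local and a systemic pool came from the same plants. The number of arrays limits the precision of each value, and values are log2 RMA levels throughout.

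Crushing the midvein of a rosette leaf sets off electrical and calcium signals that travel through the vasculature to connected leaves within minutes. The best known early transcript response is the rise of stress and jasmonate genes in both leaves. A transcript's level can drop within minutes only where its existing copies are lost quickly. Transcript decay was not measured here, and its part in these values was not tested. Growth, cell division and carbon starvation programmes are known to be adjusted after wounding and other stresses. In pooled leaves, fewer cells of a type and less RNA per cell cannot be told apart.

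The replicates of a group correlated at r = 0.995 to 0.997 over all probe sets. Ubiquitin probe sets at the 3' end read 0.97 and 1.05 above those at the 5' end in local leaves and 1.23 to 1.33 above them elsewhere, a gap that reflects RNA integrity. For actin and GAPDH the gaps in local leaves lay among those of the other groups. The part of the ubiquitin gap in the results was not tested. The mesophyll markers RCA and LHCB4.1 were high on all arrays (14.2 to 14.6), and 0 of them were called in either leaf. The other 3 photosynthesis markers looked for were not measured by a named probe set.

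Since the rule used both differences from control, they are given as a description, with no test. The median difference of the members was -1.52 in local and -1.16 in systemic leaves, against -0.04 and -0.02 over all probe sets. A local difference of -2 or lower was found in 38 members and a systemic one in 16. Over all probe sets 20.1% had every local and systemic array below both control arrays, and 0.769% met the whole rule before the omissions. At the local limit the named members just inside were AT4G02800 (-1.001), AT3G52060 (-1.004) and AT2G36200 (-1.02), and just outside lay CML41 (-0.999), AT1G75190 (-0.998) and AT1G13990 (-0.992). At the systemic limit AT4G02800 (-0.809), AT2G36200 (-0.816) and AT4G39860 (-0.830) were inside, and AT5G12420 (-0.797), AUR2 (-0.789) and AT1G48330 (-0.781) outside. Another 7 probe sets passed both differences but overlapped the control arrays.

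The named member with the deepest difference in both leaves was AT2G33850, a gene to which the tables used here give no function. It stood at 8.74 and 9.41 on the control arrays, 3.94 and 3.82 on the local arrays, and 3.71 and 4.07 on the systemic arrays. Local and systemic leaves overlapped and lay far below control, 36.5-fold and 36.4-fold lower. All 4 values of the wounded plants lay below the lower quartile of their arrays (4.41 to 4.44), so that the level in these leaves is uncertain.

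**Figure D1:**
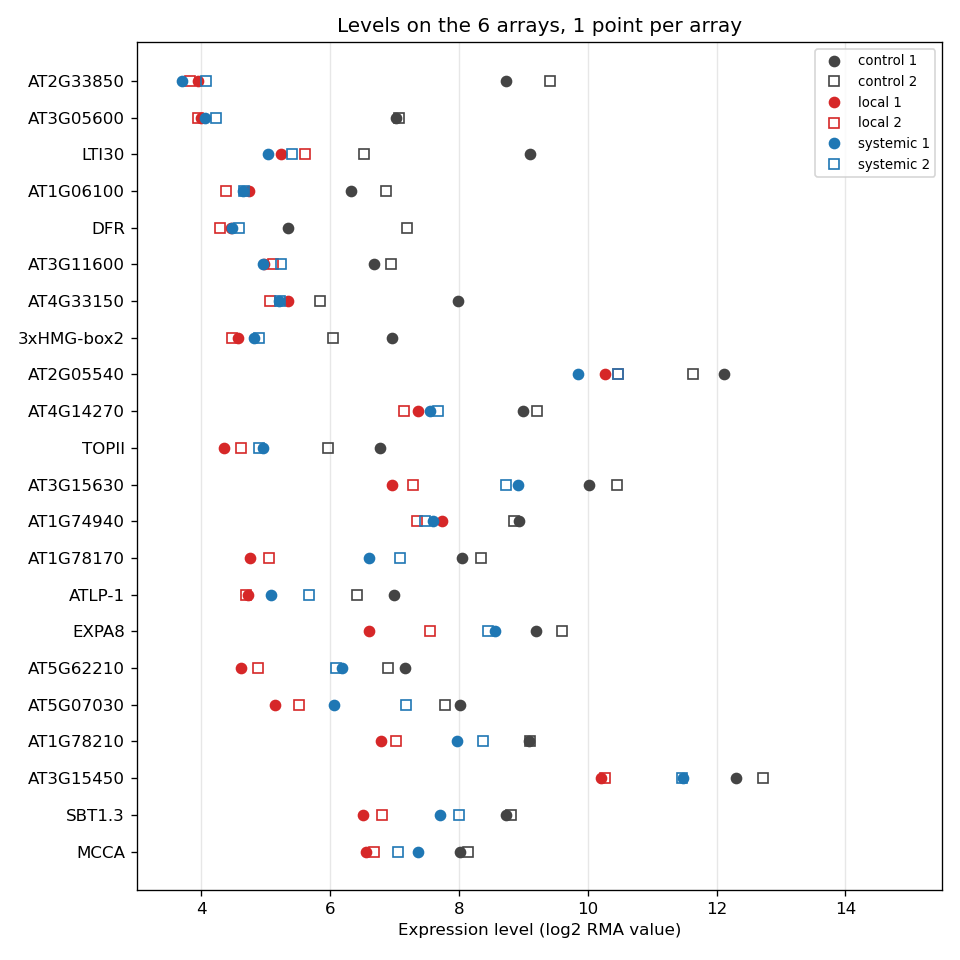
Expression level (log2 RMA value, horizontal axis) of 22 of the genes described with the value of every array, 1 symbol per array. Filled circles are replicate 1, open squares replicate 2, black control, red local and blue systemic. AT2G33850 stood at 8.74 and 9.41 in control and at about the same low level in both leaves of wounded plants. AT1G78170 and AT3G15630 hold a middle level in systemic leaves.

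The 6 members of lipid metabolism and hydrolases had a median difference of -1.59 in local and -1.23 in systemic leaves. AT3G05600, which encodes an epoxide hydrolase-like protein of the alpha/beta hydrolase fold, stood at 7.02 and 7.07 in control, 3.99 and 3.95 in local and 4.07 and 4.23 in systemic leaves. Its control arrays were nearly equal, and all 4 other arrays lay about 3 lower (-3.07 in local and -2.89 in systemic leaves), again below the lower quartile of their arrays. AT1G06100, a gene of the ADS family of acyl lipid desaturases, stood at 6.32 and 6.88 in control, 4.75 and 4.39 in local and 4.66 and 4.67 in systemic leaves. The 2 leaves overlapped, and the differences were -2.03 and -1.94.

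AT1G78210, which encodes another alpha/beta hydrolase, stood at 9.09 and 9.11 in control, 6.80 and 7.02 in local and 7.98 and 8.37 in systemic leaves. Both local arrays lay below both systemic arrays, and the rule placed control above both leaves. Without systemic replicate 1, AT1G78210 no longer met the rule. AT2G38180, which encodes a lipase or esterase of the SGNH hydrolase class, had differences of -1.04 and -1.15. The lipid transfer family genes AT1G62500 and AT4G12490 had differences of -1.16 and -1.06 in local and -1.31 and -1.15 in systemic leaves, but AT4G12490 stood at 6.55 on control replicate 1 and 5.52 on control replicate 2. Without control replicate 1 its differences were -0.54 and -0.64, and those of AT1G62500 in local leaves -0.70.

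Related genes that are no members allow a comparison within the families. Of the 4 measured epoxide hydrolase-like genes of a list of 7, AT3G05600 is the member. Of the other 3, AT3G51000 and AT4G15955 were called lower in both leaves, with differences of -0.40 and -0.39 in local and -0.42 and -0.50 in systemic leaves (limma, adjusted p = 0.026, 0.033, 0.047 and 0.027), and AT4G02340 differed by 0.15 and 0.00. With each array left out in turn, the local calls of both genes were lost in 3 of 6 fits, and the systemic calls in 6 of 6 for AT3G51000 and 5 of 6 for AT4G15955 (adjusted p up to 0.19 and 0.17). After cyclic loess both calls of AT3G51000 and the local call of AT4G15955 were lost (adjusted p = 0.066, 0.062 and 0.054), with the direction kept. Over all probe sets 13.7% were called lower in local than in control leaves and 3.67% lower in systemic leaves, with 9.92% and 4.73% higher. The local split depended on the scaling, with 3117 lower and 2257 higher as deposited and 2315 lower and 2806 higher after cyclic loess.

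Of a list of 13 MAGL-type alpha/beta hydrolases, which are related to monoacylglycerol lipases, 12 were measured by a named probe set, and none of the 12 is a member. In local leaves 2 were lower and 1 higher, and in systemic leaves 3 were lower and 1 higher, with a median difference of -0.00 and -0.11. The lower ones included AT2G39400, which fell by 0.77 ± 0.14 in local and 1.86 ± 0.14 in systemic leaves (SE, limma, adjusted p = 0.0054 and 0.00050), and AT5G19290, which fell by 0.90 ± 0.12 in local leaves (adjusted p = 0.0013). AT1G73480 rose by 0.68 ± 0.10 in local leaves (adjusted p = 0.0024), and its difference in systemic leaves was -0.09. The remaining lower call in systemic leaves was that of AT3G62860 (-0.49, adjusted p = 0.029), lost without either control array or either systemic array (adjusted p up to 0.14). The rise of AT1G18360 in systemic leaves (0.42, adjusted p = 0.039) was lost in each of the 6 fits that left out 1 array (adjusted p from 0.056 to 0.19), and the systemic call of AT5G19290 (-0.56, adjusted p = 0.025) without either control array or systemic replicate 1 (adjusted p up to 0.14). AT2G39420 was not called (0.65 and 0.27, adjusted p = 0.060 and 0.54) but was called higher in both leaves without control replicate 2 (adjusted p = 0.0034 and 0.043), and in local leaves after cyclic loess (adjusted p = 0.0495).

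**Figure D2:**
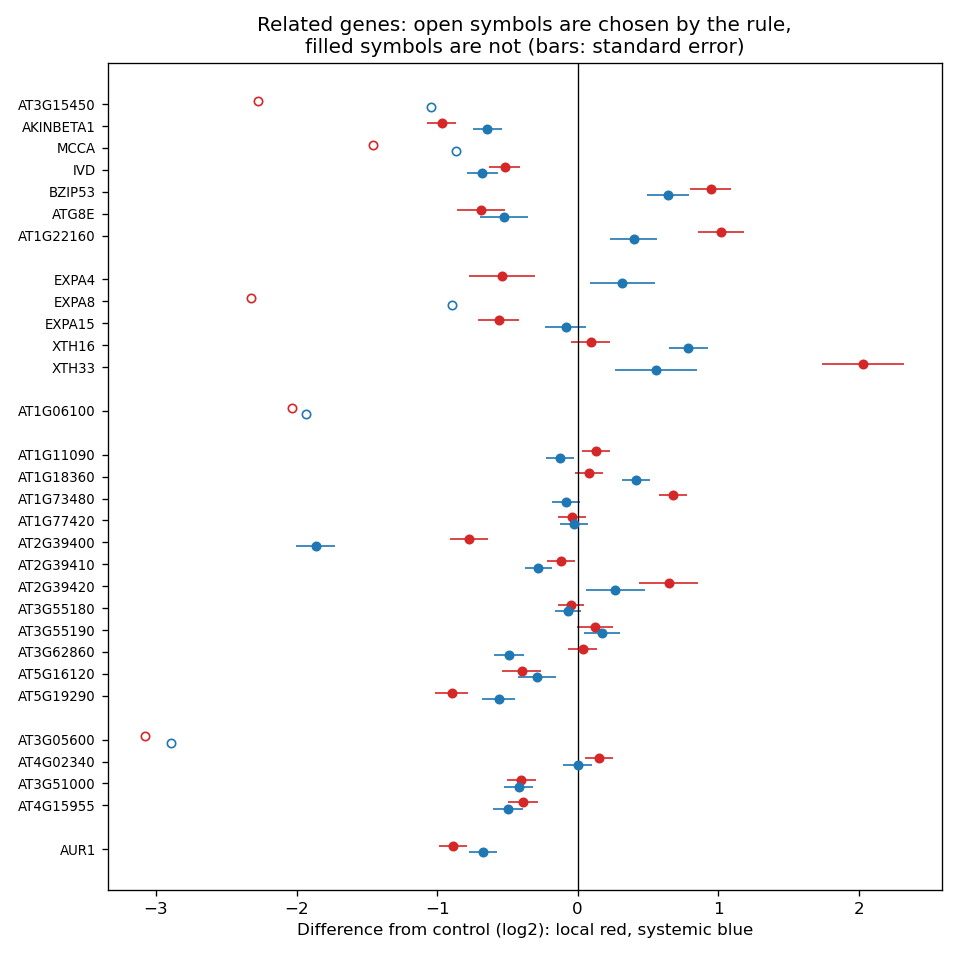
Difference from control (log2, horizontal axis; red local, blue systemic) of the measured genes of 6 fixed lists, from top to bottom the energy deprivation, wall, ADS, MAGL-type, epoxide hydrolase-like and dividing cell lists. Open symbols are genes chosen by the rule and carry no test; filled symbols carry their moderated standard error as bars. BZIP53 and AT1G22160 lie right of 0 in a list whose members AT3G15450 and MCCA lie left of it.

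Another 5 members belong to energy deprivation and amino acid breakdown. AT3G15450, a dark- and starvation-induced gene of the aluminium-induced protein family, stood at 12.31 and 12.73 in control, 10.21 and 10.27 in local and 11.48 and 11.47 in systemic leaves. The rule placed the control arrays above the others, and both local arrays lay below both systemic ones. AT4G27450, which encodes a protein of the same family, stood at 10.11 and 10.04 in control, 9.26 and 8.84 in local and 8.36 and 8.79 in systemic leaves, so that here the systemic arrays were the lower ones. AT4G27450 no longer met the rule after cyclic loess, after median centring, without control replicate 1 or without local replicate 2. MCCA encodes a subunit of methylcrotonyl-CoA carboxylase, an enzyme of leucine breakdown. It stood at 8.01 and 8.14 in control, 6.56 and 6.68 in local and 7.37 and 7.06 in systemic leaves. Both local arrays lay below both systemic ones, and without systemic replicate 2 MCCA no longer met the rule.

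AT4G33150 encodes the bifunctional enzyme of lysine breakdown, lysine-ketoglutarate reductase and saccharopine dehydrogenase. Its levels were 7.98 and 5.84 in control, 5.35 and 5.06 in local and 5.21 and 5.22 in systemic leaves. The control arrays were farther apart (2.14) than the difference in the mean (-1.70 in local and -1.69 in systemic leaves), and without control replicate 1 the differences were -0.63 and -0.62. AT1G74940, which encodes a protein with an FCS-like zinc finger, a class that binds the SnRK1 energy-sensing kinase, stood at 8.94 and 8.85 in control, 7.74 and 7.34 in local and 7.60 and 7.48 in systemic leaves. Its differences, which the rule used, were -1.35 and -1.36, and its local arrays, the farthest apart, differed by 0.40.

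Of 33 energy deprivation and dark-induced genes listed, 7 were measured by a named probe set, and AT3G15450 and MCCA are members. Of the other 5, 3 were called lower and 2 higher in local leaves, and 2 lower and 1 higher in systemic leaves. AKINBETA1, which encodes a beta subunit of SnRK1, fell by 0.97 ± 0.11 in local leaves (SE, limma, adjusted p = 0.00054). In systemic leaves it differed by -0.64 (adjusted p = 0.010), which was no call once systemic replicate 1 was left out (adjusted p = 0.074). IVD, isovaleryl-CoA dehydrogenase of leucine breakdown, differed by -0.52 in local and -0.68 in systemic leaves (adjusted p = 0.011 and 0.0093). Those calls were lost without control replicate 1 or either local array (local, adjusted p from 0.053 to 0.061), and without systemic replicate 1 (systemic, adjusted p = 0.061). ATG8E, an autophagy gene, was lower in local leaves by 0.69 in the mean (adjusted p = 0.022, and up to 0.12 without either control array or local replicate 2, and 0.050 after cyclic loess).

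The list did not move in a single direction. BZIP53, a transcription factor of low-energy responses, rose by 0.95 ± 0.15 in local leaves (SE, limma, adjusted p = 0.0030), and AT1G22160, another FCS-like zinc finger gene, rose by 1.02 ± 0.17 (adjusted p = 0.0036). In systemic leaves BZIP53 differed by 0.64 (adjusted p = 0.036), a call kept without control replicate 1 and lost without any of the other 5 arrays (adjusted p up to 0.19). The median of the 5 genes was -0.52 in either leaf.

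Genes of the cell wall and of secreted proteins made up 9 members, with a median difference of -1.99 in local and -1.28 in systemic leaves. AT2G05540, which encodes a glycine-rich protein, stood at 12.12 and 11.63 in control, 10.28 and 10.47 in local and 9.85 and 10.48 in systemic leaves. ATLP-1, a thaumatin-like protein gene, stood at 6.99 and 6.42 in control, 4.73 and 4.70 in local and 5.09 and 5.67 in systemic leaves. In AT2G05540 the local and systemic arrays overlapped, while in ATLP-1 both local arrays lay below both systemic ones. The other thaumatin family member, AT2G28790, had differences of -1.27 and -1.13, the peroxidase gene AT2G37130 of -1.27 and -1.59, and AT5G55180, which encodes a glycosyl hydrolase of the glucanase family, of -1.20 and -1.28.

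EXPA8, an alpha-expansin of wall loosening, stood at 9.20 and 9.61 in control, 6.61 and 7.55 in local and 8.56 and 8.46 in systemic leaves. The local arrays differed by 0.94 from each other and still lay below both systemic arrays. SBT1.3, a subtilisin-like serine protease, stood at 8.73 and 8.81 in control, 6.51 and 6.80 in local and 7.71 and 8.01 in systemic leaves. AT5G07030, an aspartyl protease gene, stood at 8.01 and 7.79 in control, 5.14 and 5.52 in local and 6.07 and 7.18 in systemic leaves. Systemic replicate 1 differed from replicate 2 by -1.11, the widest such gap of the 60 named members. Without systemic replicate 1, AT5G07030 and SBT1.3 no longer met the rule. EXPA8 no longer met it without control replicate 2, where its systemic difference was -0.69. AT5G62210 encodes a protein related to embryo-specific protein 3. It stood at 7.16 and 6.89 in control, 4.62 and 4.89 in local and 6.18 and 6.10 in systemic leaves. Without control replicate 1 its systemic difference was -0.75, so that it no longer met the rule.

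Of 20 wall loosening and arabinogalactan genes listed, 5 were measured, and EXPA8 is a member. Of the other 4, XTH33, a xyloglucan endotransglucosylase gene, rose by 2.03 ± 0.29 in local leaves (SE, limma, adjusted p = 0.0020). EXPA15 was the only one called lower there (-0.56, adjusted p = 0.027), and lost that call without control replicate 2 or either local array (adjusted p up to 0.13) and after cyclic loess (adjusted p = 0.059). In systemic leaves XTH16 was called higher (0.79 ± 0.14, adjusted p = 0.013, and 0.060 and 0.058 without control replicate 2 or systemic replicate 2) and no gene lower. EXPA4 differed by -0.54 and 0.32 without a call.

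Another 5 members serve cell division, with median differences of -1.39 and -1.002. 3xHMG-box2, which encodes a chromosome-binding protein of mitosis, stood at 6.96 and 6.05 in control, 4.58 and 4.49 in local and 4.81 and 4.90 in systemic leaves. TOPII, DNA topoisomerase II, which untangles replicated chromosomes, stood at 6.78 and 5.96 in control, 4.36 and 4.62 in local and 4.96 and 4.90 in systemic leaves. In both genes the local arrays were the lowest and control replicate 1 the highest. FU, also known as FUSED, a kinase of cytokinesis, and the kinesin genes AT5G60930 and AT2G36200 had differences of -1.16, -1.39 and -1.02 in local and -0.99, -1.002 and -0.82 in systemic leaves. FU has a further probe set, which stood at 5.14 and 5.40 in control and 5.13 to 5.25 on the other arrays and so showed no such difference.

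All 5 division genes stood higher on control replicate 1 than on control replicate 2. Without control replicate 1, 3 of the 5 still met the rule, and without control replicate 2 all 5 did. AUR1, a mitotic Aurora kinase and the only one of 4 listed markers of dividing cells that was measured, is no member. It fell by 0.89 ± 0.10 in local and 0.67 ± 0.10 in systemic leaves (SE, limma, adjusted p = 0.00056 and 0.0061). Its summed level on a linear scale was 90.0 to 94.3 on the control, 47.5 to 52.3 on the local and 55.9 to 59.8 on the systemic arrays. AUR2, its close relative, lay just outside the systemic limit (-1.01 and -0.79). The share of dividing cells in the pools was not measured, and its part in these values was not tested.

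Of 4 stress and pigment genes among the members, 3 had control arrays over 1 apart. The other was CCS, the copper chaperone of superoxide dismutase. It stood at 8.55 and 8.29 in control and had differences of -1.14 in local and -0.84 in systemic leaves. Without control replicate 1 its systemic difference was -0.71, so that CCS no longer met the rule. Nor did CCS meet it without systemic replicate 1. LTI30, a dehydrin induced by cold and abscisic acid, stood at 9.10 and 6.53 in control, 5.23 and 5.62 in local and 5.04 and 5.42 in systemic leaves. Without control replicate 1 its differences were -1.11 and -1.31, and without control replicate 2 they were -3.68 and -3.88. LTI30 met the rule either way. DFR, dihydroflavonol reductase of anthocyanin synthesis, stood at 5.34 and 7.19 in control, 4.46 and 4.29 in local and 4.48 and 4.59 in systemic leaves, so that here control replicate 2 was the high one, and without it the differences were -0.97 and -0.81. SAG29, a SWEET-type sugar transporter of senescing tissue, stood at 6.64 and 5.34 in control, and without control replicate 1 its differences were -0.46 and -0.26. The rule itself required every local and systemic array to lie below the lower control array. In LTI30, DFR and SAG29 the size of the difference varied with the control array.

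The control arrays were over 1 apart in 25 of 169 members and in 0.479% of all probe sets. That is a description only, since a single high control array raises the control mean that the rule used. Among these members control replicate 1 was the higher one in 22 of the 25. Over all probe sets it was the higher one in 102 of 109. Without control replicate 1 the rule gave 148 probe sets, 113 of them members, and without control replicate 2 it gave 243, 151 of them members. Of the 60 named members, 44 were kept without control replicate 1 and 55 without control replicate 2. The reason for the spread between the control pools was not tested.

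**Figure D3:**
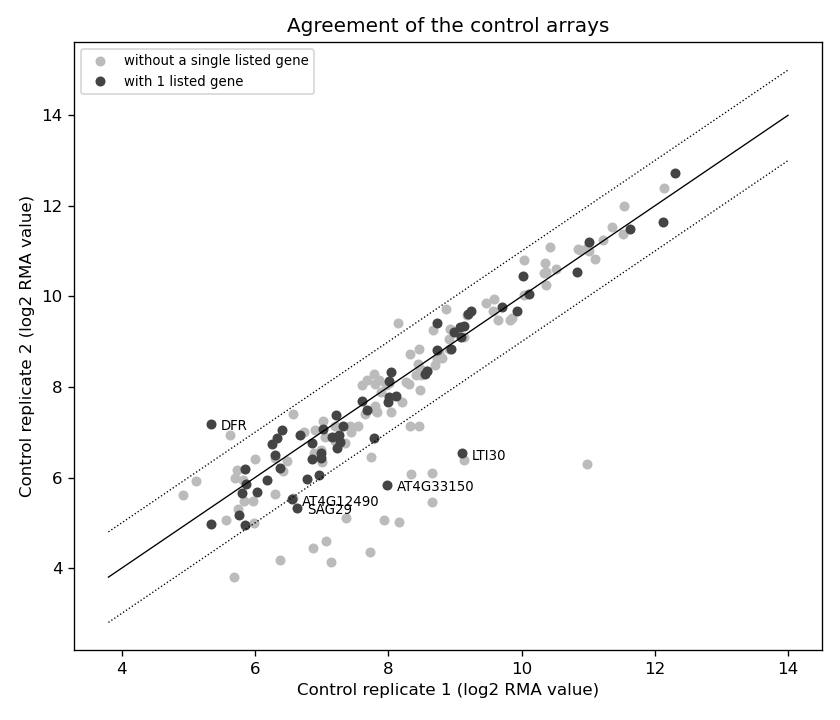
Level on control replicate 1 (horizontal axis) against control replicate 2 (vertical axis), both log2 RMA values, for the 169 members; black points have 1 listed gene, the solid line marks equal levels and the dotted lines a difference of 1. The named points outside the dotted lines are LTI30, AT4G33150, SAG29 and AT4G12490, higher on replicate 1, and DFR, higher on replicate 2.

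Members with other or unknown roles made up 31 probe sets. In none of them were the control arrays over 1 apart, which also held for the wall and division members. AT3G11600 stood at 6.68 and 6.94 in control, 4.98 and 5.12 in local and 4.95 and 5.24 in systemic leaves. AT4G14270 stood at 8.99 and 9.22 in control, 7.37 and 7.16 in local and 7.55 and 7.67 in systemic leaves. In the first the 2 leaves overlapped, and in the second the local arrays were lower. CCL, a clock-regulated gene known for its unstable transcript, stood at 10.84 and 10.54 in control, 9.73 and 9.39 in local and 8.88 and 9.21 in systemic leaves, with the systemic arrays lowest. Without control replicate 1 or without local replicate 2, CCL no longer met the rule.

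The F-box kelch gene AT1G23390 stood at 11.63 and 11.50 in control, 10.28 and 9.95 in local and 10.45 and 10.46 in systemic leaves. AT2G30600, which encodes a BTB domain protein, is represented by 2 probe sets that gave close differences (-1.34 and -1.32 in local, -1.001 and -0.998 in systemic leaves). VPS2.2, an ESCRT-related protein of membrane trafficking, had differences of -1.25 and -0.85. GLC, an acyltransferase gene known from seed development, had -1.44 and -1.03, while a further probe set of it differed by only -0.47 and -0.25.

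Of the remaining named members several have a known family. AT1G30820, a CTP synthase gene of nucleotide synthesis, had differences of -1.80 and -1.16, and AT5G57655, a xylose isomerase family gene, of -1.08 and -0.95. AT3G51660, which encodes a protein related to the macrophage migration inhibitory factor of animals, had -1.42 and -1.16, and AT4G28240, of a wound-responsive protein family, -1.35 and -0.95. AT1G52200, of the PLAC8 family, stood at 7.23 and 6.66 in control, 5.72 and 5.57 in local and 5.29 and 5.31 in systemic leaves, lowest on the systemic arrays. AT5G48480 had differences of -1.21 and -1.16, with systemic arrays at 5.54 and 6.36 on either side of the local ones (5.90 and 5.88). The 8 named members not described lay between -1.73 and -1.03 in local and between -1.27 and -0.93 in systemic leaves.

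The unnamed and multi-gene members had a median of -1.55 in local and -1.18 in systemic leaves. The 2 with the deepest smaller difference were 247717_at and 258675_at. The first stood at 10.98 and 6.29 in control, 4.26 and 4.24 in local and 6.19 and 4.10 in systemic leaves, so that its arrays disagreed widely in 2 groups. The second stood at 8.92 and 8.85 in control, 4.48 and 4.50 in local and 5.66 and 6.18 in systemic leaves. Its local arrays lay below its systemic ones.

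Whether the wounded and the distant leaf differed was tested with the local against systemic contrast, on which the rule set no limit. It is not independent of the rule, since it is the gap between both differences that the rule used. The contrast rests on the same local and systemic arrays, and the rule's limits differ by 0.2 between the leaves, so a deeper local level is in part favoured by the rule. Members were chosen for large differences from control, so the shares over all probe sets are given as a description. Of the 169 members, 40 (23.7%) were called lower in local than in systemic leaves and 2 (1.18%) higher (limma, Benjamini-Hochberg over all probe sets), against 4.93% and 4.77% of all probe sets. After cyclic loess the members' counts were 36 and 2, and those of all probe sets 836 and 1283, in place of 1122 and 1084. Both local arrays lay below both systemic arrays in 108 members (63.9%, against 31.1% of all probe sets) and above them in 21 (12.4%, against 22.3%). The median local minus systemic difference was -0.32 in the members and -0.03 over all probe sets. Without local replicate 1 the counts were 20 and 0, and without systemic replicate 2 they were 24 and 0. Without systemic replicate 1 they were 27 and 1.

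Among named members 12 were called, all lower in local leaves. AT1G78170, with no function given in the tables used here, stood at 8.05 and 8.34 in control, 4.75 and 5.05 in local and 6.61 and 7.09 in systemic leaves, a local minus systemic difference of -1.95 ± 0.18 (SE, limma, adjusted p = 0.0010). AT3G15630 stood at 10.02 and 10.46 in control, 6.97 and 7.29 in local and 8.92 and 8.73 in systemic leaves, a difference of -1.70 ± 0.17 (adjusted p = 0.0014). In both genes the local arrays lay below the systemic ones, and the rule placed control above both leaves.

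The embryo-specific protein related gene AT5G62210 differed by -1.39 ± 0.13 between local and systemic leaves (limma, adjusted p = 0.0010), the starvation gene AT3G15450 by -1.23 ± 0.14 (adjusted p = 0.0021), the hydrolase gene AT1G78210 by -1.26 ± 0.14 (adjusted p = 0.0022) and SBT1.3 by -1.20 ± 0.14 (adjusted p = 0.0024). EXPA8 differed by -1.43 ± 0.27 (adjusted p = 0.018), a call lost without local replicate 1 or either systemic array (adjusted p from 0.050 to 0.087). AT5G07030 differed by -1.29 ± 0.31 (adjusted p = 0.042), a call lost without local replicate 1, local replicate 2, systemic replicate 2 or either control array (adjusted p from 0.052 to 0.26). Its difference was -0.73 without systemic replicate 2. MCCA differed by -0.59 ± 0.12 (adjusted p = 0.024, and from 0.063 to 0.17 without either local array or systemic replicate 1). The remaining 3 were AT1G12845, AT4G39860 and AT3G17680 (-1.02, -0.55 and -0.42, adjusted p = 0.0066, 0.016 and 0.036).

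The other named members were not called between the leaves, which does not show that the leaves were alike. For the deepest, AT2G33850, the difference was -0.01 ± 0.21 (limma, adjusted p = 0.99), with both leaves below the lower quartile of their arrays. For AT3G05600 the difference was -0.18 ± 0.10 (adjusted p = 0.32). All 5 division genes had a lower mean in local leaves, as had 80% of all named members. None of the 5 was called, with differences from -0.17 for FU to -0.45 for TOPII. Of the 12 named members with a higher mean in local than in systemic leaves, CCL at 0.51 ± 0.16 and AT4G27450 at 0.48 ± 0.17 were the farthest (adjusted p = 0.099 and 0.15).

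**Figure D4:**
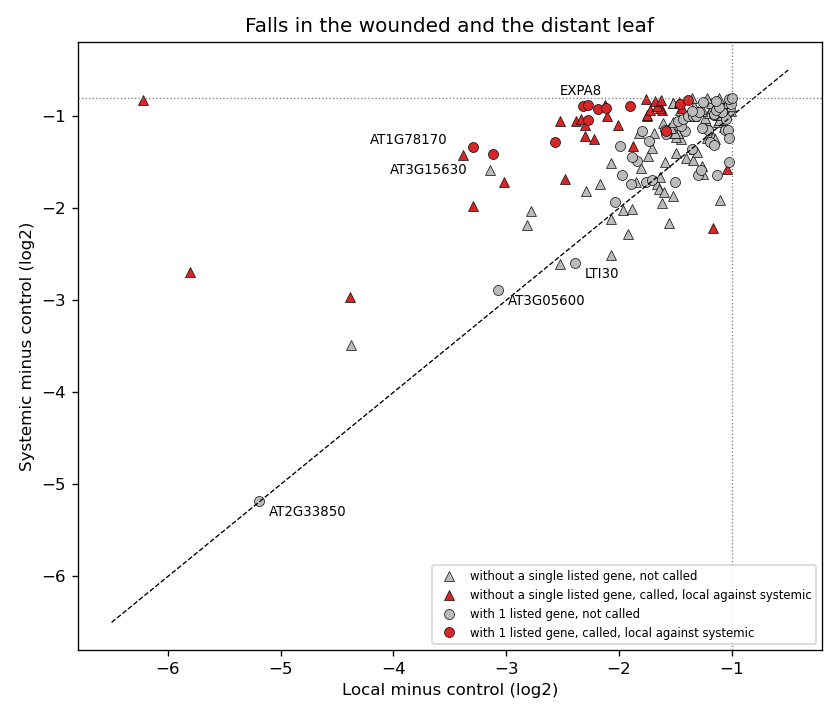
Local minus control (horizontal axis) against systemic minus control (vertical axis), both log2, for the 169 members; circles have 1 listed gene, triangles do not, and red marks an adjusted p under 0.05 in local against systemic leaves. The dotted lines are the limits of the rule and the dashed line equal differences; AT2G33850 and AT3G05600 lie near the dashed line, and 40 of the 42 red points lie above it, on the side of the deeper local difference.

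The replicates also differed in depth within the systemic group. Systemic replicate 1 lay below systemic replicate 2 in 112 of 169 members (66.3%, median difference -0.10), against 52.9% of all probe sets. For the local arrays, replicate 1 lay below replicate 2 in 95 members (56.2%, against 51.6%).

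The 59 genes of the named members lay on all 5 nuclear chromosomes, 16, 8, 14, 10 and 11 on chromosomes 1 to 5. By the order of protein-coding genes in the TAIR10.1 annotation, AT3G52060, which encodes a glycosyltransferase-like protein, and AT3G52070 are neighbours with no gene between them, and AT1G78170 and AT1G78210 have 4 genes between them. The median annotated gene length was 1909 bp, against 2103 bp for all named genes. The median control level of the members was 7.77 against 6.27 over all probe sets, a description only, since the rule used the control levels.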

How the data were processed

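RNA of 6 leaf pools was labelled (6 µg each) and hybridised to 1 Affymetrix array per pool. The deposited values are log2 levels per probe set that the authors made with RMA. The submitters' processing notes name it and Affymetrix Expression Console, without versions. RMA normalises between arrays at the level of single probes, so a shift of all transcripts may not be seen, and array medians still ran from 6.22 to 6.29. No detection calls were used here. Control probe sets (64) were left out and no filter was set. Genes were named from the platform annotation through Entrez numbers with a TAIR10.1 gene table. Of 22746 probe sets, 13513 have 1 gene (13436 matched by Entrez number, 48 by locus, 29 under the platform's name), 503 several and 8730 none.

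The members and the gene lists were chosen with earlier results of these data known, and the groups of members by role after their values were seen. A limma model (3.58.1, R 4.3.3) over all 6 arrays had 3 residual and 4.85 prior degrees of freedom, with no block for the replicate number, two-sided p-values and Benjamini-Hochberg adjustment over all probe sets at 0.05. The fit was tested on simulated data. The probe set with the highest mean stood for a list gene. Genes described with every array were the 15 named members with the deepest smaller difference, up to 8 per direction called between local and systemic leaves, and members of fixed lists; others named with all values were picked by role after seeing them. Alternatives were a replicate block, cyclic loess, centring on the median, leaving out dim probe sets, trended and robust moderation, the 4 arrays compared, and each array left out. The labels call the arrays biological replicates, and a replicate number was not taken as a pairing: deviations of same-numbered arrays correlated at 0.14 (control and local), 0.02 (control and systemic) and 0.20 (local and systemic) across all probe sets. Over the members, which were chosen on these arrays, they correlated at 0.16, 0.32 and 0.38. Of 11 brassinosteroid and gibberellin, 4 xylem and 4 epidermis genes listed, 0 were measured by a named probe set.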

Additional observations from a re-analysis of the deposited data

Results flagged for a closer look

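Of the 12 named members in which the response of the wounded leaf differed from that of the distant leaf by the test of the difference itself, local minus systemic, the 8 with the largest differences are given here. The wounded leaf had the lower level on both of its arrays. The members were chosen on both differences from control that make up this contrast, so these calls are not independent of the rule. The differences were -1.95 for AT1G78170, -1.70 for AT3G15630, -1.43 for EXPA8, -1.39 for AT5G62210, -1.29 for AT5G07030, -1.26 for AT1G78210, -1.23 for AT3G15450 and -1.20 for SBT1.3. The calls of EXPA8 and AT5G07030 were lost in 3 and 7 of the alternatives (adjusted p up to 0.087 and 0.26), and the difference of AT5G07030 was -0.73 without systemic replicate 2. Among the 7 alternatives for AT5G07030, leaving out either control array is the same test of this contrast as the 4 arrays alone. With 2 arrays a group, no single array could be examined as standing apart from its own group.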

How the results depend on the processing

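With probe sets under the median level left out, 99 probe sets met the rule (fewer were eligible), against 169, 168 with those under the 25th percentile left out, 159 after median centring and 142 after cyclic loess, all of them members. Leaving out each array gave 146 to 243. Between local and systemic leaves, the members called lower in local numbered 20 to 45 and higher 0 to 3 with an array left out, and over all probe sets 200 to 1154 and 358 to 1175. Under the other 8 alternatives these counts stayed within 1.5 times of the main ones. With the replicate number as a block, 47 members were lower and 3 higher, and the lists gained a lower wall gene in local leaves (EXPA4, 2 in place of 1) and a lower cuticle gene in systemic leaves (WSD1, 1 in place of 0), with ATG8E lower and the trichome marker TRY higher in systemic leaves (adjusted p = 0.046 and 0.043). Of 22 named members over 14 alternatives, none called between the leaves changed sign, 6 that were not called did in at least 1 alternative (among them AT2G33850 and AT4G33150), and 3 lost a call, EXPA8, MCCA and AT5G07030 (the last also with robust moderation and the 4 arrays alone, adjusted p = 0.11 and 0.052). Settings chosen after seeing the data were applied to the list genes: with each array left out, 11 of 27 calls were kept throughout, and no called gene changed direction under median centring (2 calls lost, AT3G51000 in systemic leaves at adjusted p = 0.056 and AT4G15955 in local leaves at 0.055) or cyclic loess. Where a single array remains in a group, it is assumed to vary like the others. A single control array adds nothing to the estimated spread. The local against systemic tests without either control array therefore equal that of the 4 arrays alone, and the 14 alternatives are not all distinct. The comparison of promoter motifs was not run, since no sequences were used here.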

Other observations

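Further list genes had the following values. GH3.3, an auxin-conjugating enzyme gene, was called lower in local (-0.67, adjusted p = 0.0075) and systemic leaves (-0.73, adjusted p = 0.013, and 0.055 and 0.072 without systemic replicate 1 or 2) by limma, and the other 2 measured genes of the auxin, shade and growth list were not called. In the cuticle, wax and surface lipid list 2 genes were measured and 0 called, WSD1 (-0.30 in local, -0.54 in systemic leaves) and FATB (-0.23 and 0.00). Among markers of other cell types, the phloem gene SWEET11 was higher in local leaves (0.79, adjusted p = 0.011 by limma, and 0.059 without local replicate 2), and FMA and AT1G22690 of guard cells and TRY of trichomes were not called in either leaf. Without control replicate 1, FMA was called lower in local leaves (-0.53, adjusted p = 0.048).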
